A study of Homo sapiens with 4 samples.

Results

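The T-box genes are described here in 9 windows of the human genome build hg19, around TBX2, TBX3, TBX4, TBX5, TBX15, TBX18, TBX20, TBX1 and EOMES. The windows were chosen with earlier results of these data known. Within that choice, all H3K27me3 peaks that overlapped a window in either of the study's peak lists were taken, without regard to their values. They numbered 30 of the 13155 peaks of the AKBA list and 33 of the 8890 peaks of the DMSO list. The study mapped histone H3 trimethylated at lysine 27 (H3K27me3) by chromatin immunoprecipitation and sequencing in HaCaT, an immortalised line of human keratinocytes, and the question was how the mark differed after 12 hours with and without AKBA. Cells of 1 condition were cultured with AKBA and those of the other with DMSO, a solvent, as the control. The name AKBA is generally used for an acetylated boswellic acid, a triterpenoid of frankincense; the labels leave it unexplained and state no dose. Each condition had 1 H3K27me3 library, with a peak list of its own, and 1 input DNA library whose values were not used here. With 1 library per condition, no difference below has a replicate check and none has a p-value. The peak lists hold no read numbers, so the depth of the libraries is unknown, and a place outside a list was not called rather than shown to lack the mark. A list of peaks of a silencing mark offers no expression values against which the labelled cell type could be checked.

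T-box proteins are transcription factors that bind DNA through the T-box domain and direct the formation of mesoderm, heart, limbs and other organs in the embryo. H3K27me3 is laid down by Polycomb repressive complex 2 and lies in broad stretches over developmental regulator genes that a cell type keeps silent. Such stretches are usually anchored at promoters and nearby sequence rich in CpG dinucleotides.

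The promoters of 3 members are shown, chosen by the peaks of their windows. A relation between promoter sequence and peaks was not tested. TBX5 had the greatest excess of AKBA over DMSO bases, the TBX20 window held the widest AKBA peak, and TBX4 was without a DMSO peak. The sequences are RefSeq promoters of 300 bases around a start of the gene in build GRCh38.p14, and capitals mark every CG. Their positions are GRCh38.p14 positions and were not placed against the hg19 peaks. The TBX5 promoter, the first of 2 in the table, is chr12:114407963-114408262 on the minus strand, the TBX20 promoter is chr7:35254051-35254350 on the minus strand and the TBX4 promoter is chr17:61456238-61456537 on the plus strand.
TBX5: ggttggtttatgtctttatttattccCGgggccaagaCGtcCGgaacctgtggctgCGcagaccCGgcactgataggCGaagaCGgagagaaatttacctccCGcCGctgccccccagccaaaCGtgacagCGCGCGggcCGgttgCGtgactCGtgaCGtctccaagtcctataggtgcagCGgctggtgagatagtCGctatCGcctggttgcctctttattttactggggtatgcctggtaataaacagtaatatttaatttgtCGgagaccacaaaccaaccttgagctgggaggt
TBX20: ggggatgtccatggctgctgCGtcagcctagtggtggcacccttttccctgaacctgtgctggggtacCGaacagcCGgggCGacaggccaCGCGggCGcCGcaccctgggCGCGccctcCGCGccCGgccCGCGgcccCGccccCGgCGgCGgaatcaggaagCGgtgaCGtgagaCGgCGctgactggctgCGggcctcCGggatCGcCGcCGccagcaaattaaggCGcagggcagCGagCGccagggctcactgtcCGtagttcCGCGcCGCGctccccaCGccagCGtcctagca
TBX4: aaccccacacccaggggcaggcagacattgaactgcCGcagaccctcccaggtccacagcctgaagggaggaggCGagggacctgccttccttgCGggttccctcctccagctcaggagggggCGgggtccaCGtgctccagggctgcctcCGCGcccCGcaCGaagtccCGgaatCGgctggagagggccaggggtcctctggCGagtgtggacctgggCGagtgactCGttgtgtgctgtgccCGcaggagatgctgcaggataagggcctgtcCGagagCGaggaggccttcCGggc
The TBX20 promoter held 38 CG dinucleotides, a number reached by 9.91% of the 35116 promoters of the table. The TBX5 promoter shown held 21, reached by 39.5%, and the TBX4 promoter 18, reached by 44.5%. The second TBX5 promoter, not shown, held 15, reached by 48.9%. The motif CG reads the same on both strands, and 96.0% of all promoters held it at least once. Of the 9 members, 6 had an entry, with 7 promoters in all, and TBX2, TBX3 and TBX15 had none. The 7 promoters held 15 to 38 CG, with a median of 21, against a median of 14 over the whole table.

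Called H3K27me3 was found in all 9 windows in the AKBA list and in 8 of the 9 in the DMSO list, where the TBX4 window had no peak. Along the chromosomes, 14.1% of fixed windows of 60 kb held an AKBA peak and 10.3% a DMSO peak. The T-box windows are 48 to 146 kb long, so this background is for windows of like but not equal size. Of the 690 kb in the T-box windows, 67.6 kb (9.80%) lay in AKBA peaks and 40.4 kb (5.85%) in DMSO peaks. In the 100 kb on either side of each window, leaving out what belongs to another T-box window, as TBX2 and TBX4 lie side by side, the coverage was 1.03% for AKBA peaks and 0.486% for DMSO peaks. Coverage was higher inside the window than beside it in all 9 windows for AKBA peaks and in 8 for DMSO peaks. The difference was small at TBX4, 1.27% against 0.98% for AKBA peaks, and no DMSO peak lay in either place. The same count was not made over other windows that hold a peak. As few 60 kb windows hold one, such windows may often be denser than their surroundings, so the count is not shown to be particular to T-box genes.

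AKBA peaks covered more bases than DMSO peaks in all 9 windows, and in each of the 8 windows that held peaks of both lists. Of 60 kb windows with a peak of either list, 77.5% had more AKBA bases, and of those with peaks of both lists 81.0% did. The ratio of AKBA to DMSO bases over the T-box windows was 1.67, against 1.94 over the whole lists. In 4 of the 8 windows the ratio reached 1.5, against 58.4% of 60 kb windows with peaks of both lists. The median ratio of the 8 windows was 1.53, and that of the 60 kb windows was 1.70. The T-box windows therefore shared the direction of the lists. That their ratio was below that of the lists depended on the setting. It was 1.96 against 1.93 with a score of at least 3, 2.30 against 2.20 with peaks of at least 1 kb, and 1.64 against 1.55 with the 8890 highest-scoring peaks of each list. The score minimum assumes that scores of the 2 lists can be compared, which is unknown.

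The number of peaks went the other way from the covered bases. The T-box windows held 30 AKBA and 33 DMSO peaks, a ratio of 0.909, whereas the whole lists had a ratio of 1.48. Fewer AKBA than DMSO peaks were found in 3 of the 8 windows with peaks of both lists, TBX5, TBX15 and TBX20. Of 60 kb windows with peaks of both lists, 17.9% had fewer AKBA peaks. That background was not matched for the number of peaks in a window, and a window with 1 peak of each list can only tie. The numbers of AKBA and DMSO peaks were equal at TBX2, TBX18, TBX1 and EOMES. At TBX3 the AKBA list held more. The difference rests on TBX5, without which each list held 25 peaks and the ratio of covered bases was 1.496. It also turned round under settings that dropped narrow or low-scoring peaks of both lists or joined DMSO peaks. With a score of at least 3 there were 24 AKBA and 21 DMSO peaks, with a width of at least 1 kb there were 21 and 13, and with DMSO peaks joined across gaps narrower than 857 bp, the smallest gap of the AKBA list, there were 30 AKBA and 29 DMSO peaks.

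**Figure D1:**
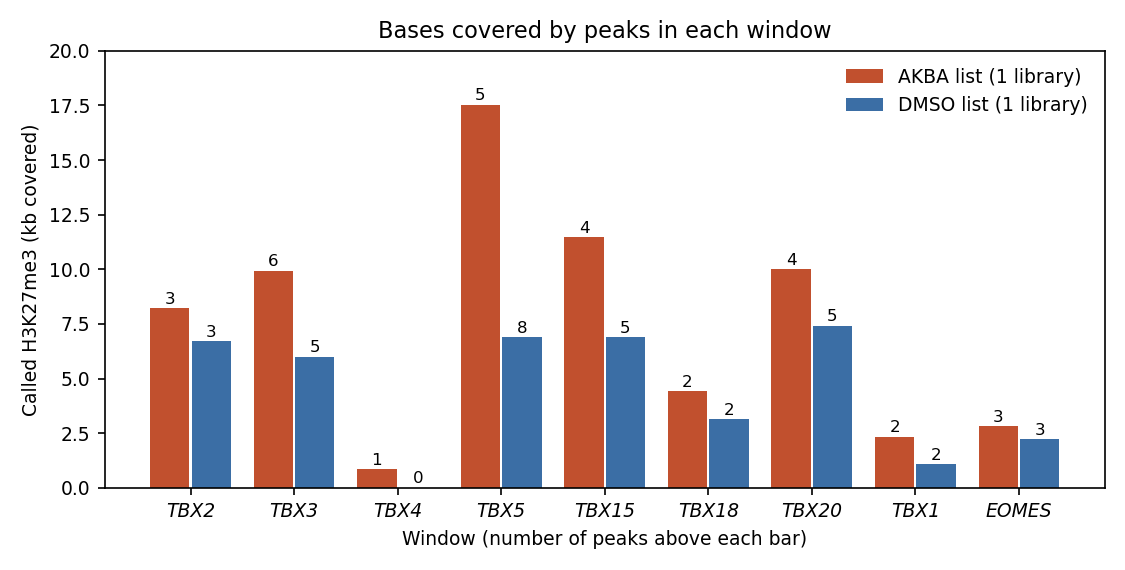
Kilobases covered by peaks (vertical axis) in each T-box window, clipped to the window, for the AKBA list (left bar) and the DMSO list (right bar), with the number of peaks above each bar and 1 library per condition. The AKBA bar is the taller in every window, and TBX5 shows the widest step, 17.5 kb with AKBA against 6.89 kb with DMSO from fewer AKBA peaks (5) than DMSO peaks (8).

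The peaks of the T-box windows were wide for their lists. Their median width was 1488 bp for AKBA peaks, against 742 bp over that list, and 942 bp for DMSO peaks, against 552.5 bp over that list. Peaks of at least 2 kb made up 13 of the 30 AKBA peaks, against 14.0% of the whole AKBA list, and 5 of the 33 DMSO peaks, against 9.43% of the whole DMSO list. Of the AKBA peaks, 10 stood in the widest decile of their list, as did 6 of the DMSO peaks. The score that the authors gave each peak is on a scale the files do not state. It is compared here only within a list, except in the setting with a score of at least 3. That setting applied the same minimum to both lists, and whether a score means the same in both is unknown. By score, 24 of the 30 AKBA peaks and 21 of the 33 DMSO peaks were above the median of their own list, and the top decile held 4 AKBA and 2 DMSO peaks.

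Most peaks lay at the same places in both lists. Of the 30 AKBA peaks, 24 (80.0%, exact 95% Clopper-Pearson interval 61.4 to 92.3%) overlapped a DMSO peak by at least 1 bp, against 32.2% of the whole AKBA list. Of the 33 DMSO peaks, 31 (93.9%, interval 79.8 to 99.3%) had an AKBA counterpart, against 54.5% of the whole DMSO list. The intervals cover counting error only, and peaks of 1 window share their surroundings. Because wide peaks are shared more often in these lists, the shares are also given by width. Of AKBA peaks of at least 1 kb, 19 of 21 in the windows were shared, against 65.2% of the list, and of those under 1 kb 5 of 9 were shared, against 14.9%. For DMSO peaks the numbers were 13 of 13 at 1 kb or more, against 93.2%, and 18 of 20 below it, against 41.5%. Among peaks of at least 2 kb, 12 of 13 AKBA peaks were shared, against 89.0%, and 5 of 5 DMSO peaks, against 99.3%. The share in the windows was therefore higher than in the lists for AKBA peaks of at least 1 kb and for peaks under 1 kb of both lists, and near that of the lists for the widest peaks and for DMSO peaks of at least 1 kb. It depended on the definition of overlap. When the overlap had to reach 50% of both peaks, 7 of 30 AKBA peaks (23.3%) and 7 of 33 DMSO peaks (21.2%) were shared, against 14.0% and 20.8% of the whole lists. The DMSO share was then near that of its list, and the interval of the AKBA share, 9.93 to 42.3%, took in the 14.0%.

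Inside the windows, the AKBA peaks took in most of the bases that the DMSO list had called. Bases called in both lists came to 33.7 kb, which was 49.8% of the AKBA bases and 83.4% of the DMSO bases in the windows, against 33.2% and 64.2% over the whole lists. The values of the whole lists were not matched for peak width, and the peaks of the windows were wider. The share of DMSO bases that also lay in AKBA peaks was lowest at EOMES, 42.5%, and ran from 76.8% at TBX1 to 94.8% at TBX15 in the other 7 windows with DMSO peaks.

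**Figure D2:**
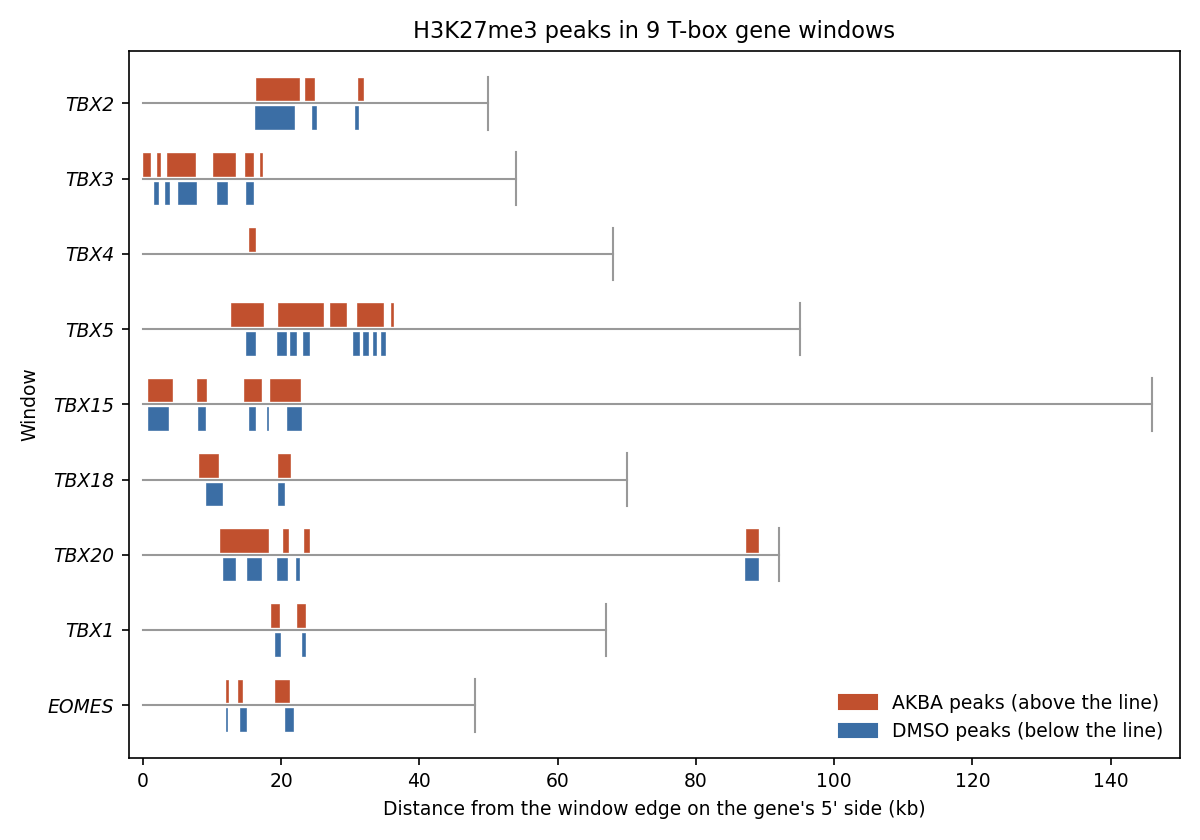
Map of the 9 windows, each drawn from the edge on the 5′ side of its gene (0 kb) to its other edge (vertical tick), with AKBA peaks above each line and DMSO peaks below it. Peaks of both lists crowd within 40 kb of the 5′-side edge, apart from 1 peak of each list near the far edge of the TBX20 window, and TBX4 has an AKBA peak only.

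The peaks were unevenly placed within the windows. To compare genes on opposite strands, positions were counted from the window edge on the 5′ side of the gene. The strand came from the RefSeq promoter table for 6 genes, and from general knowledge for TBX2, TBX3 and TBX15. As is generally known of these genes, though not read from the files, each window runs from outside 1 end of its gene to outside the other, so the start of the gene lies inside the window towards that edge. The first 40 kb from it, a length chosen after the positions were seen, held 97.5% of the AKBA bases and 95.5% of the DMSO bases, while making up 52.2% of the total window length. The TBX15 window showed this most plainly, with 123 kb on the 3′ side, 84.3% of the window, free of peaks in both lists. Peak-free stretches of 58.8 kb at TBX5, 51.8 kb at TBX4 and 48.8 kb at TBX18 likewise reached the 3′-side edge. TBX20 was the exception. Peaks of both lists lay near its 3′-side edge. In the RefSeq table the pseudogene DPY19L2P1 lies within the span of the TBX20 window.

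TBX2 and TBX3 encode closely related repressors that act in limb, heart and mammary development and can hold back senescence by repressing cell cycle inhibitor genes. At TBX2, on chromosome 17 from 59457 to 59507 kb, 3 AKBA peaks took up 8.22 kb and 3 DMSO peaks 6.71 kb, a ratio of 1.22, the lowest of the 8 windows with peaks of both lists. The widest peak was much alike in both lists. It ran from 59473438 to 59479585 (6148 bp, score 4.77) with AKBA and from 59473272 to 59478804 (5533 bp, score 4.14) with DMSO, where it was the widest of all 33 peaks. The AKBA peak held 97.0% of the DMSO peak's bases. In the widths of their own lists these peaks ranked in the top 0.958% of AKBA peaks and the top 0.607% of DMSO peaks. The highest score of the DMSO peaks in the window, 4.65, belonged to a narrow peak of 473 bp from 59487694 to 59488166, of which 78 bp lay in an AKBA peak of 779 bp. In the RefSeq table BCAS3 and the non-coding TBX2-AS1 neighbour TBX2, so a peak in the window need not belong to TBX2 alone.

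At TBX3, on chromosome 12 from 115088 to 115142 kb, 6 AKBA peaks took up 9.94 kb and 5 DMSO peaks 5.996 kb, a ratio of 1.66. All 5 DMSO peaks overlapped an AKBA peak. The widest AKBA peak, from 115134389 to 115138483 (4095 bp, score 3.15), joined 2 DMSO peaks across a gap of 1308 bp, which is wider than the 857 bp at which AKBA peaks were still separate. The wider of these, from 115134328 to 115136962 (2635 bp, score 3.38), was the widest DMSO peak of the window, and the narrower, from 115138271 to 115138816 (546 bp), had the highest DMSO score, 3.95. The highest AKBA score, 4.48, fell on a peak of 218 bp from 115124770 to 115124987 with no DMSO counterpart, 1138 bp from the nearest DMSO peak. A further AKBA peak without counterpart, from 115141009 to 115142106, crossed the window's edge. The TBX3 peaks occupied only the 5′ side, from the edge to 17.2 kb inside it. With a score minimum of 3 the AKBA excess of 3.94 kb at TBX3 shrank to 0.06 kb, as AKBA peaks then covered 4.67 kb and those of DMSO 4.60 kb, and with the window narrowed by 10 kb on each side it was 2.13 kb.

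TBX4 and TBX5 are the related pair that directs hindlimb and lung (TBX4) and forelimb and heart (TBX5), and each lies next to a member of the TBX2 and TBX3 pair. Of the 9 windows, TBX4 was the least covered in either list and TBX5 the most covered by AKBA peaks. The TBX4 window, on chromosome 17 from 59514 to 59582 kb, held 1 AKBA peak from 59529367 to 59530227 (861 bp, score 2.58) and no DMSO peak. The nearest DMSO peak was 41200 bp away, and 70.9% of AKBA peaks scored at least as high. This peak was lost with a score minimum of 3, with a width minimum of 1 kb and when the AKBA list was cut to the 8890 highest-scoring peaks. The 7 kb between the TBX2 and TBX4 windows held no peak of either list.

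At TBX5, on chromosome 12 from 114772 to 114867 kb, 5 AKBA peaks took up 17.5 kb and 8 DMSO peaks 6.89 kb, a ratio of 2.54. The size of the ratio depended on the setting, in both directions. Without low-scoring or narrow peaks it rose, to 7.87 with a score of at least 3 and 6.77 with peaks of at least 1 kb. With DMSO peaks joined across gaps narrower than 857 bp it fell to 1.81, as DMSO peaks then covered 9.68 kb. The AKBA excess was 7.85 kb under that joining. The AKBA excess of 10.6 kb was 39.1% of the 27.2 kb found over all 9 windows. All 8 DMSO peaks overlapped an AKBA peak, and none was wider than 1315 bp. The widest AKBA peak, from 114840916 to 114847506 (6591 bp, score 4.25), took in 3 DMSO peaks, which covered 44.8% of it. Among them were the widest DMSO peak, from 114846351 to 114847665, and the one with the highest DMSO score, 4.18, from 114842909 to 114843850. A second AKBA peak, from 114832270 to 114835999 (3730 bp), took in 4 DMSO peaks of 397 to 889 bp. Of the 5 gaps that these 2 AKBA peaks bridged, 4 were narrower than 857 bp, the smallest gap between any AKBA peaks, whereas DMSO peaks were separate down to 641 bp. The part of that joining distance in the number of peaks cannot be told apart from a change in the mark.

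The 5 bridged gaps came to 3.73 kb, so they made up part of the extra bases at TBX5 and not all of them. An AKBA peak from 114849568 to 114854283 (4716 bp, score 4.57) overlapped a single DMSO peak of 1241 bp and reached 2231 bp further on the 5′ side of the gene and 1244 bp further on the 3′ side. An AKBA peak of 2259 bp from 114837603 to 114839861 (score 3.99) had no DMSO overlap and lay 964 bp from the nearest DMSO peak. It was the only peak of at least 2 kb in the 9 windows without a counterpart. The highest AKBA score of the window, 4.68, fell on a peak of 238 bp from 114830841 to 114831078, also without a counterpart. Joined across gaps of up to 5 kb, all peaks of the window formed a domain of 23.4 kb, of which AKBA peaks covered 74.8% and DMSO peaks 29.4%.

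The 221 kb between the TBX5 and TBX3 windows held 8 AKBA peaks covering 11.4 kb and 4 DMSO peaks covering 5.75 kb. Most of this lay close to TBX5. The widest AKBA peak there, from 114877151 to 114882768 (5618 bp, score 5.79), began 10.2 kb past the TBX5 window and overlapped a DMSO peak of 2403 bp from 114877185 to 114879587 (score 5.23). In the other pair of overlapping peaks there, the AKBA peak of 1901 bp was narrower than the DMSO peak of 2249 bp.

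TBX15, TBX18, TBX20 and TBX1 belong to a second branch of the family. TBX15 acts in the skeleton and, in mice, in the patterning of coat colour by the dermis. On chromosome 1 from 119406 to 119552 kb, 4 AKBA peaks took up 11.5 kb and 5 DMSO peaks 6.89 kb, a ratio of 1.67. The highest AKBA score, 7.14, which 2.25% of AKBA peaks reached, was at the peak from 119547775 to 119551294 (3520 bp). It overlapped the widest and highest-scoring DMSO peak of the window, from 119548414 to 119551295 (2882 bp, score 4.29), and the ends on the 5′ side of the gene differed by 1 bp. The widest AKBA peak, from 119529338 to 119533604 (4267 bp, score 4.92), overlapped a DMSO peak of 1973 bp and extended 2494 bp further on the 5′ side. The DMSO peak without an AKBA overlap, from 119533906 to 119534065, had the narrowest width of the DMSO list, 160 bp, and lay 301 bp from an AKBA peak.

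TBX18 acts in the sinoatrial node and ureter. Its window, on chromosome 6 from 85424 to 85494 kb, held 2 AKBA peaks covering 4.43 kb and 2 DMSO peaks covering 3.15 kb, a ratio of 1.41. They formed pairs that overlapped 1 to 1. The wider pair, which also had the window's highest score in each list, ran from 85483127 to 85485872 (2746 bp, score 4.35) with AKBA and from 85482608 to 85484880 (2273 bp, score 3.63) with DMSO. Here the AKBA peak reached 992 bp further on the 5′ side and ended short of the DMSO peak on the 3′ side. The AKBA excess of 1.28 kb was 0.287 kb with the window narrowed by 10 kb on each side and 2.16 kb with peaks of at least 1 kb. No peak of either list lay within 100 kb outside this window, which was also so for TBX15 and EOMES.

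TBX20 is required for the growth and septation of the heart. On chromosome 7 from 35222 to 35314 kb, 4 AKBA peaks took up 9.999 kb and 5 DMSO peaks 7.42 kb, a ratio of 1.35. The widest AKBA peak of the 9 windows, from 35295887 to 35302813 (6927 bp, score 6.02), joined 2 DMSO peaks across a gap of 1723 bp. Those were the widest DMSO peak of the window, from 35296908 to 35299004 (2097 bp, score 4.12), and the highest-scoring of all 33, from 35300728 to 35302364 (1637 bp, score 4.65). The peak near the 3′-side edge ran from 35224996 to 35226705 (1710 bp, score 6.01) with AKBA and from 35225064 to 35226889 (1826 bp, score 3.81) with DMSO, so the AKBA peak was slightly the narrower. The AKBA excess of 2.58 kb over the window was 4.44 kb with a score of at least 3 and 1.66 kb with peaks of at least 1 kb. An AKBA peak of 634 bp and a DMSO peak of 441 bp lay 701 bp apart without overlap.

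TBX1 is the gene held chiefly responsible for the heart and pharyngeal defects of the 22q11.2 deletion syndrome. Its window, on chromosome 22 from 19724 to 19791 kb, held 2 AKBA peaks covering 2.33 kb and 2 DMSO peaks covering 1.07 kb, a ratio of 2.17. The wider AKBA peak, from 19746247 to 19747485 (1239 bp), had a score of 7.70, the highest of the 30 AKBA peaks and reached by 1.44% of the list. It enclosed the highest-scoring DMSO peak of the window, from 19747068 to 19747435 (368 bp, score 4.14). The widest DMSO peak, from 19743182 to 19743887 (706 bp, score 3.02), shared 457 bp with the other AKBA peak. With peaks of at least 1 kb both AKBA peaks remained and no DMSO peak did. In the RefSeq table GNB1L lies within the span of the window, so a peak here need not belong to TBX1 alone.

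EOMES, of yet another branch, acts in trophoblast, in early mesoderm and endoderm, and in cytotoxic lymphocytes. On chromosome 3 from 27737 to 27785 kb, 3 AKBA peaks took up 2.83 kb and 3 DMSO peaks 2.24 kb, a ratio of 1.26. Each peak overlapped 1 of the other list, and yet 0.95 kb was common to both. The widest AKBA peak, from 27763863 to 27765865 (2003 bp, score 2.89), shared 513 bp with the widest DMSO peak, from 27763254 to 27764375 (1122 bp, score 2.53), and was shifted from it towards the 5′ side of the gene. The AKBA excess of 0.591 kb was 0.328 kb with a score of at least 3 and 0.257 kb with the 8890 highest-scoring peaks. The highest AKBA score, 3.16, was at a peak of 491 bp from 27770704 to 27771194, whose DMSO partner measured 952 bp. The highest DMSO score, 4.32, was at a peak of 163 bp from 27772762 to 27772924 inside an AKBA peak of 334 bp.

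**Figure D3:**
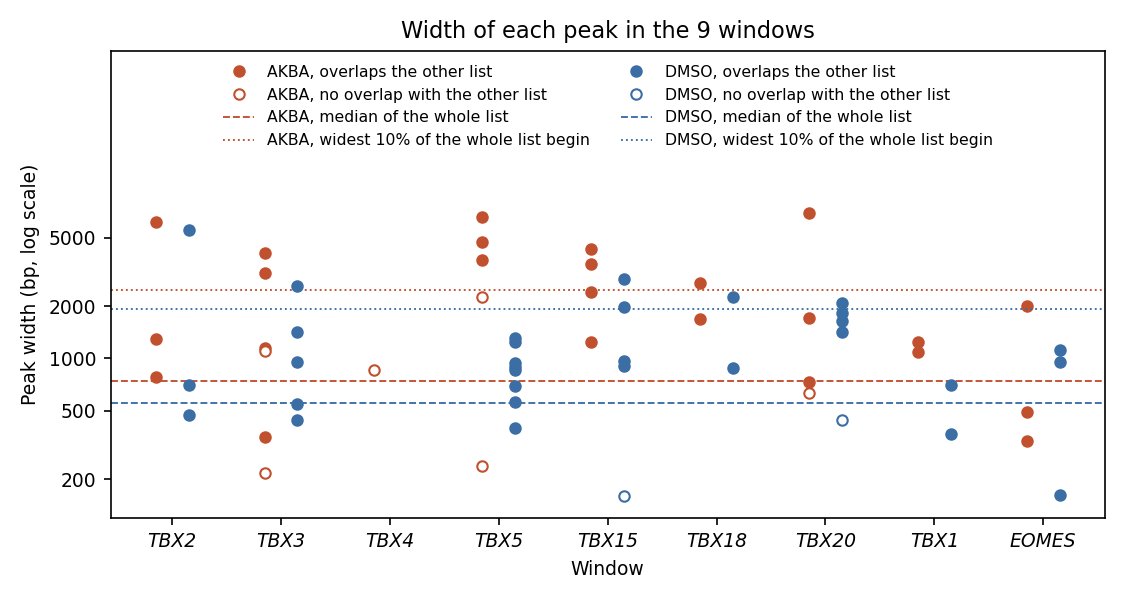
Width in bp (log scale) of every peak in the 9 windows, AKBA left and DMSO right in each, with open circles for peaks that overlap none of the other list. Dashed lines mark the median of each whole list (742 bp AKBA, 552.5 bp DMSO) and dotted lines the start of its widest decile (2498 bp AKBA, 1932 bp DMSO), and most peaks lie above the median of their list.

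Bridging of several peaks by a peak of the other list was near its background among peaks of like width. At TBX3, TBX5 and TBX20, 4 of the 30 AKBA peaks overlapped 2 or more DMSO peaks, against 4.43% of the AKBA list, and 0 of the 33 DMSO peaks overlapped 2 or more AKBA peaks, against 0.945% of the DMSO list. All 4 were at least 2 kb wide, a class that had 13 members in the windows and in which 27.4% of the whole AKBA list bridged.

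Where an AKBA and a DMSO peak overlapped only each other, the AKBA peak was usually the wider. The windows held 20 such pairs, and the AKBA peak was wider in 16 of them (80.0%), against 73.1% of the 3510 pairs in the whole lists, a share near the background. The median difference was 528.5 bp in the windows and 404 bp over all pairs, and the median ratio of widths 1.60 and 1.42. The greatest difference was 3475 bp at TBX5. The 4 pairs with the narrower AKBA peak were at TBX3, EOMES and TBX20, which had 2. AKBA peaks extended past the DMSO peak on the 5′ side in 13 pairs, on the 3′ side in 14 and on both sides in 7, so neither side prevailed. No AKBA peak was narrower than 214 bp and no DMSO peak narrower than 160 bp, and the part of such a minimum in the widths was not tested.

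**Figure D4:**
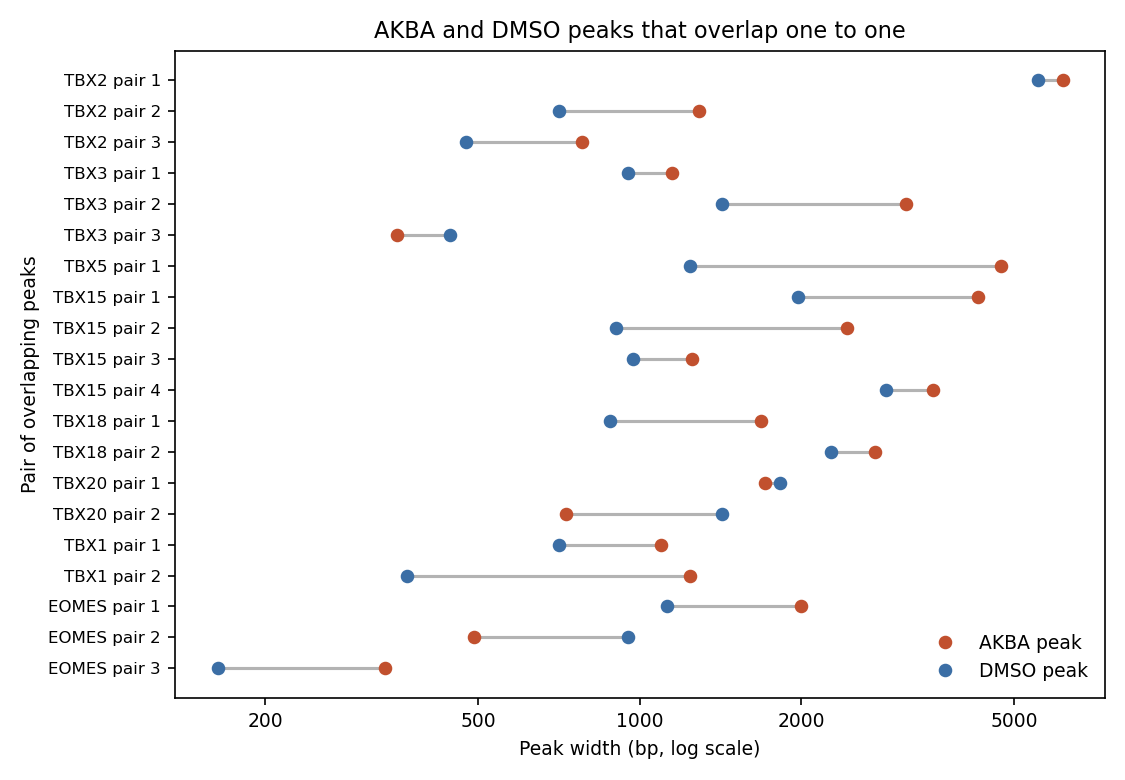
Widths in bp (log scale) of the 20 pairs of peaks that overlap only each other, with a point for the AKBA peak and a point for the DMSO peak joined by a line. The AKBA point lies to the right in 16 pairs and to the left in 4, with the longest line for the TBX5 pair (4716 bp AKBA, 1241 bp DMSO).

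The T-box windows varied widely among themselves. Coverage by AKBA peaks ran from 1.27% of the window at TBX4 and 3.48% at TBX1 to 18.4% at TBX3 and 18.5% at TBX5. Coverage by DMSO peaks ran from 0 at TBX4 and 1.60% at TBX1 to 11.1% at TBX3 and 13.4% at TBX2. TBX5 was thus the most covered window in the AKBA list, but in the DMSO list (7.26%) it stood behind TBX2, TBX3 and TBX20 (8.07%). TBX2 was the most covered in the DMSO list and stood behind TBX5 and TBX3 in the AKBA list (16.4%). Of all 60 kb windows, 0.244% were at least as covered by AKBA peaks as TBX5 and 0.174% at least as covered by DMSO peaks as TBX2. For TBX4 9.38% were at least as covered by AKBA peaks. With 1 library per condition, the spread that these orders would show between cultures is unknown.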

How the data were processed

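Peak lists of 2 H3K27me3 libraries, 1 from HaCaT cells with AKBA and 1 with DMSO, were analysed. The score per peak was deposited by the authors in column 5 of files without a header, and its scale is not stated. The submitters' processing notes name build hg19 and the programs BWA, STAR and MACS2, without versions. How input DNA and duplicate reads were handled, and the peak threshold, are not stated there. Depth is unknown, so no limit of detection is given.

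Peaks overlapping the 9 windows were counted and their bases clipped to the window with pandas 2.3.3, numpy 2.4.6 and scipy 1.17.1 under Python 3.11.15, and overlaps were checked with bedtools 2.31.1 and tested on simulated data. Positions are 1-based. Named peaks are the widest and highest-scoring of each list in a window, AKBA peaks over 2 or more DMSO peaks, and unshared peaks of at least 2 kb. Narrower peaks named besides these were chosen after their values were seen. The members, windows and comparisons were chosen with earlier results of these data known. The RefSeq tables are of GRCh38.p14 and served for names, neighbours, strands and promoter sequences. TBX6, TBX10, TBX19, TBX21, TBX22, TBR1, TBXT and MGA were not analysed here, as no hg19 annotation was used. Alternatives changed the score and width minimum, the number of peaks, joining, overlap and window size.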

Additional observations from a re-analysis of the deposited data

How the results depend on the processing

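The AKBA list covered more bases over the T-box windows under every setting run, with ratios of 1.496 to 2.30. By window, 60 of 63 values over 7 planned settings favoured AKBA, none turned round, and the other 3 were TBX4, where neither list kept a peak. In 12 of the 63 the difference moved by more than 1.5 times. The ratio of peak numbers, 0.909, turned round to 1.14 with a score of at least 3, to 1.62 with peaks of at least 1 kb and to 1.03 with DMSO peaks joined across gaps narrower than the smallest AKBA gap. Without the TBX5 window, a setting chosen after seeing the data, it was 1. The share of AKBA peaks with a DMSO overlap, 80.0%, was 52.4% (11 of 21, exact 95% interval 29.8 to 74.3%) with peaks of at least 1 kb in both lists, a setting that removes narrow partners. The whole AKBA list then had 39.1%, which lies within that interval. With overlap of at least 50% of both peaks the shares were 23.3% of AKBA and 21.2% of DMSO peaks, against 14.0% and 20.8% of the whole lists. With peaks within 1 kb counted as shared they were 93.3% and 100%, against 37.7% and 63.3% of the whole lists. No paired analysis was possible because each condition has 1 library and no result comes from a test. Leaving out a library was not possible for the same reason. Unknown depth, an unstated score scale and 1 library per condition limit every comparison.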
